A study of Mus musculus with 55 samples.

Results

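CTCF-AID ES cells were followed through the transcriptional burst that marks the first hour after mitosis, and +IAA cells, in which CTCF had been degraded, were compared with −IAA cells at 50 and 60 min after release. The comparison rests on 8 of the 55 libraries of the series: 4 −IAA and 4 +IAA, namely replicates 1 and 3 at 50 min and replicates 1 and 2 at 60 min, taken as 4 pairs that share time and replicate. The remaining libraries are 28 of CTCF-AID cells at other stages and 19 of CCNA-GFP reporter cells. All values are pre-mRNA levels in TPM (a level corrected for transcript length and library size) over 10237 listed genes.

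CTCF-AID #EN52.9.1 is 1 clone derived from E14Tg2a mouse ES cells, in which CTCF is fused to an auxin-inducible degron, a tag through which auxin (IAA) sends the protein to the proteasome. In both arms 4 h of the CDK1 inhibitor RO-3306 (10 µM) preceded 4 h of nocodazole (50 ng/ml), which depolymerises microtubules, and shake-off yielded the mitotic cells. The +IAA arm received 0.5 mM IAA during the last 2 h in nocodazole and kept it after release, while the −IAA arm received none. No cells without the degron were treated with IAA, so an action of IAA itself and the loss of CTCF cannot be told apart in these libraries. Replicate 1 enters at both times, so the 4 pairs come from 3 replicates, and p-values measure the spread between these pairs alone.

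CTCF is a zinc finger protein that binds a long asymmetric DNA word, halts cohesin when the word faces the incoming loop, and so anchors chromatin loops and domain borders. It also binds close to the start sites of many genes. Part of its binding in ES cells persists on mitotic chromosomes, which is called bookmarking, and most genes resume transcription soon after anaphase in a brief burst of output. Pre-mRNA keeps its introns and is soon spliced, so its level follows ongoing transcription.

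The 8 libraries were alike in their gross properties. The listed TPM summed to 37872–43370 per library, 6–13 genes were listed at 0, 7.06–7.53% of that sum came from the top 100 genes, and Spearman's rho between any 2 of the libraries ran from 0.931 to 0.989. Low values are whole multiples of a step, of 0.0225–0.026 TPM in −IAA and 0.0227–0.0246 TPM in +IAA libraries, so the TPM carry a factor that differs between libraries and is not explained in the sources used here. The files hold no read counts, so sequencing depth and counting error are unknown. The ES cell markers summed to 94.4–116 TPM in −IAA and 85.9–118 TPM in +IAA libraries, with 7 of 8 markers listed (Sox2 is absent from the table) and none called. Of the 7 trophectoderm markers 5 were listed, and their sum was 6.75–18.7 TPM in −IAA and 11–20.8 TPM in +IAA libraries. Markers of feeder fibroblasts (2 of 8 listed), primitive endoderm (1 of 8), primed epiblast (1 of 5), 2-cell-like cells (3 of 6) and mesoderm (2 of 5) each summed to 3.75 TPM or less, and the 2 listed neural markers of 4, Pax6 and Nes, to 4.8–10.8 TPM.

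The burst was present in both arms. From mitosis to 50 min the median gene rose by 0.61 on the log2(TPM + 1) scale in −IAA and by 0.62 in +IAA cells of replicate 1, and by 0.60 and 0.61 in replicate 3. At 60 min the rise was 0.59 and 0.56 in replicate 1, and 0.65 and 0.67 in replicate 2. The median difference between +IAA and −IAA over all genes was 0.0134 and −0.00828 in the 50 min pairs and −0.0315 and −0.0134 in the 60 min pairs, with a mean of −0.00996 ± 0.0185 (SD, n = 4 pairs), which turned to 0.0124 once each library was divided by the step of its TPM. An exact two-sided sign-flip permutation test over the 4 pairs gave p = 0.375, and the smallest p that 4 pairs allow is 0.13, so this design cannot pass 0.05.

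Against this common rise, a small set of genes differed by more than the spread between pairs. By limma on log2(TPM + 1), with pairs blocked and p-values adjusted over all 10237 genes (Benjamini-Hochberg), 182 genes (1.78%) were lower and 102 (0.996%) higher in +IAA cells at an adjusted p under 0.1 and an absolute log2 difference above 0.2. Once each library was divided by its step the split was 162 lower and 144 higher. All 284 changed the same way in each of the 4 pairs, which a paired fit favours, so this is no separate support for the calls. Of the 7981 genes without the promoter word described below, 1410 were lower in all 4 pairs, called or not. The lower genes fell to a median of 70.0% of their −IAA level, with a median log2 difference of −0.34 and 38 genes beyond 0.5, while the higher genes stood at a median of 135% with a median of 0.26 and 15 genes beyond 0.5. In 127 of the lower genes every +IAA library lay below every −IAA library, against 185 of all genes (1.81%). In 38 of the higher genes every +IAA library lay above every −IAA library, against 70 of all genes (0.684%). Without the block 120 genes were called (94 lower, 26 higher), and without replicate 1, which leaves 2 pairs, 95 (74 lower, 21 higher). With replicate 1 averaged over 50 and 60 min 260 genes were called (171 lower, 89 higher).

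The difference was already present at 50 min. Fitted at each time, 74 genes (0.723%) were lower and 47 (0.459%) higher at 50 min, and 98 (0.957%) were lower and 28 (0.274%) higher at 60 min. The test of the difference between the 2 times, by limma in the same fit, called 0 genes lower (0%) or higher, with 397 at an unadjusted p under 0.05. Without the block 9 genes were called at 50 min and 6 at 60 min. At 50 min the total of 121 (1.18%) became 203 without replicate 2 and 32 without replicate 3, and the difference between times gave 3 and 4 genes. Without replicate 2 the 60 min arms hold 1 library each, and without replicate 3 the 50 min arms do; the spread then comes from the pairs of the other time, and the lone pair is assumed to vary like them.

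Tex261, which encodes a membrane protein of the early secretory pathway (chr6:83768885-83775813 on GRCm38), was at 4.27 and 4.08 TPM at 50 min and 5.40 and 3.41 TPM at 60 min without IAA, and at 1.54, 1.17, 1.34 and 1.33 TPM in the matching +IAA libraries. All 4 +IAA libraries thus lay far below the lowest −IAA library, and the mean was 31.3% of that without IAA (log2 difference −1.16, SE 0.08, limma adjusted p = 0.00124). Nle1, a factor for maturation of the large ribosomal subunit (chr11:82900768-82908411), was at 7.12, 6.84, 8.03 and 6.60 TPM without IAA and at 3.01, 2.52, 2.88 and 2.56 TPM with IAA. Its log2 difference was −1.12 (SE 0.04, limma adjusted p = 0.000189), again with no overlap. Mrps2, a protein of the small mitochondrial ribosomal subunit (chr2:28468066-28471178), was at 3.02, 3.09, 2.77 and 3.04 TPM without IAA and at 1.15, 1.03, 0.908 and 0.837 TPM with IAA. It fell by 1.01 on the log2 scale (SE 0.04, limma adjusted p = 0.000308).

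Rab12, a small GTPase of endosomes, was at 3.27, 3.80, 3.71 and 3.31 TPM without IAA and at 1.35, 1.57, 1.43 and 1.35 TPM with IAA (chr17:66494512-66519729, log2 difference −0.90). Rbm17, a splicing factor, was at 6.41, 6.37, 7.56 and 4.16 TPM without IAA and at 3.21, 2.90, 3.68 and 1.72 TPM with IAA (chr2:11585437-11604153, log2 difference −0.88). Both of these were separated in all 8 libraries, although for Rbm17 both arms were low in replicate 2, and its call was lost without the block (adjusted p = 0.109). Csnk2a2, a catalytic subunit of casein kinase 2, was at 7.12, 6.53, 9.02 and 7.26 TPM without IAA and at 3.65, 3.41, 3.90 and 3.69 TPM with IAA (log2 difference −0.86). Zbtb39, a zinc finger gene, varied more: its pair differences ran from −1.33 to −0.57 with a mean of −0.85 (SE 0.12, limma adjusted p = 0.0164).

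Of the other 5 of the 12, Lrrc59, a protein of the endoplasmic reticulum membrane, went from 8.15 ± 0.499 to 4.33 ± 0.464 TPM (SD, n = 4 each), and its call was lost without replicate 1 (log2 difference −0.75, limma adjusted p = 0.107, against −0.78). Gfm1, the mitochondrial elongation factor G, went from 2.53 ± 0.498 to 1.12 ± 0.168 TPM. Dusp12, a phosphatase, went from 2.04 ± 0.273 to 0.861 ± 0.242 TPM. Cab39, a scaffold that activates the kinase LKB1, went from 5.32 ± 0.378 to 2.92 ± 0.375 TPM, and Cdkn2aipnl from 3.67 ± 0.566 to 1.89 ± 0.364 TPM. In all 5 the 2 groups did not overlap. Among the 12, 7 overlap another gene on the opposite strand: Nle1 (Fndc8), Csnk2a2 (Gm45854), Zbtb39 (Gpr182), Lrrc59 (Eme1), Gfm1 (Lxn), Dusp12 (Gm9929 and Gm26620) and Cdkn2aipnl (Gm26551). Csnk2a2 also overlaps Gm45853 on its own strand, and the strand setting of the counting is not given in the sources used here. Traf6, a ubiquitin ligase of inflammatory signalling, had a log2 difference of −0.87 but a mean under 1 TPM: it was at 1.36–1.62 TPM without IAA and at 0.318–0.344 TPM with IAA, and is named here after its values were seen.

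**Figure D1:**
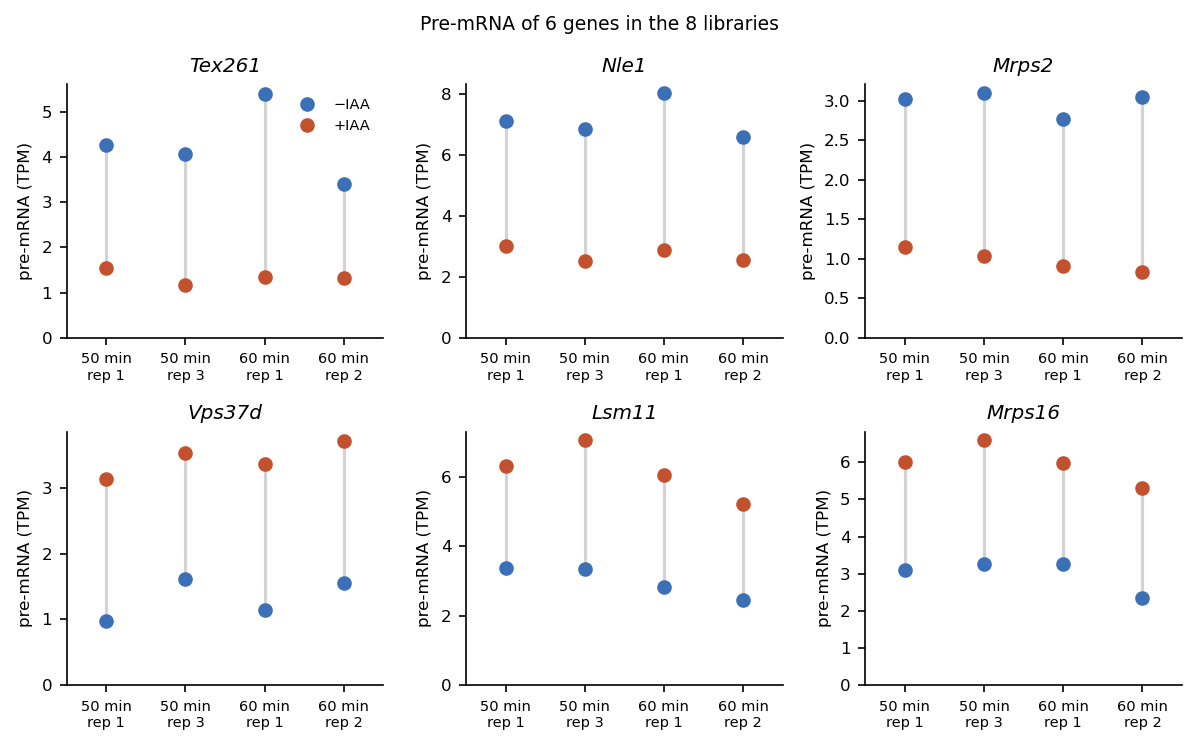
Pre-mRNA level (vertical axes, TPM, from 0) of 6 genes in the 8 libraries, grouped by time and replicate; blue points are −IAA, orange points +IAA, and grey lines join a pair. Tex261, Nle1 and Mrps2 lie lower with IAA and Vps37d, Lsm11 and Mrps16 higher in each of the 4 pairs. All 6 were chosen among genes that moved alike in all 4 pairs.

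The 12 increased genes named by rule rose in every pair, which the rule that chose them requires. Vps37d, a subunit of the ESCRT-I complex that sorts cargo into endosomal vesicles (chr5:135072900-135078266), was at 0.968 and 1.61 TPM at 50 min and 1.15 and 1.56 TPM at 60 min without IAA. With IAA the same libraries stood at 3.14, 3.53, 3.36 and 3.72 TPM. Each +IAA library was thus above every −IAA library, with a mean of 260% of that without IAA (log2 difference 0.94, SE 0.05, limma adjusted p = 0.000637). Lsm11, a component of the U7 particle that trims histone pre-mRNA (chr11:45928269-45944935), was at 3.39, 3.35, 2.83 and 2.46 TPM without IAA and at 6.31, 7.08, 6.06 and 5.22 TPM with IAA (log2 difference 0.84). The 5 listed replication-dependent histone genes, whose transcripts that particle processes, held no call. With 5 genes this is near the background of 1.78% lower and 0.996% higher and is no result about them.

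Mrps16, a second protein of the small mitochondrial ribosomal subunit (chr14:20389304-20393634), moved opposite to Mrps2: it was at 3.11, 3.25, 3.26 and 2.34 TPM without IAA and at 6.01, 6.61, 5.97 and 5.32 TPM with IAA. Its log2 difference was 0.81 (SE 0.04, limma adjusted p = 0.000519). Gys1, glycogen synthase of muscle type, was at 1.64, 1.87, 1.53 and 1.34 TPM without IAA and at 3.63, 4.14, 3.06 and 2.68 TPM with IAA (log2 difference 0.75). Prkag1, a regulatory subunit of AMP-activated kinase, which acts on glycogen and lipid metabolism, went from 3.85 ± 0.323 to 6.26 ± 0.282 TPM (SD, n = 4 each). Both genes had separate groups.

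Tfap2c, the transcription factor AP-2 gamma of trophoblast and germ cells, was the most abundant of the 12: it was at 6.62, 7.46, 4.75 and 9.47 TPM without IAA and at 12, 11.8, 8.44 and 12.2 TPM with IAA. The groups overlapped, since the −IAA library at 60 min of replicate 2 lay above the +IAA library of replicate 1, but all pairs went up (log2 difference 0.60, SE 0.07). Its call was lost without the block (adjusted p = 0.416) and without replicate 1 (log2 difference 0.46, limma adjusted p = 0.13). Krt18, a keratin and the other called trophectoderm marker, was 0.24 higher (limma adjusted p = 0.0483). Of that list Cdx2, Eomes and Krt8 had log2 differences of −0.01, −0.02 and −0.04 and were not called, and Gata3 and Elf5 are not in the table. The part of a change in cell makeup in these 2 values was not tested, and in bulk RNA more cells of a type and more RNA per cell cannot be told apart.

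Of the remaining higher genes, Vgf, a secreted neuropeptide precursor, went from 2.29 ± 0.207 to 4.26 ± 0.471 TPM, and Dtwd2, a tRNA-modifying enzyme, from 1.73 ± 0.137 to 3.40 ± 0.203 TPM. 4933412E12Rik, annotated as a long non-coding RNA of a bidirectional promoter, went from 0.916 ± 0.155 to 2.28 ± 0.51 TPM, and Mmgt2, a magnesium transporter, from 2.10 ± 0.207 to 3.47 ± 0.246 TPM (SD, n = 4 each). Fdxacb1 (log2 difference 0.63) and Ocel1 (0.58) had one pair, at 50 min of replicate 3, well above the others, with 0.94 and 0.85. Without replicate 1, which leaves 2 pairs, their log2 differences were 0.72 and 0.67 and neither was called (limma adjusted p = 0.13 and 0.117). Gys1, 4933412E12Rik, Fdxacb1, Ocel1 and Prkag1 each overlap 1 or more genes on the opposite strand (Ruvbl2, Rab3ip with Gm10271, 1110032A03Rik, Nr2f6 and B130046B21Rik).

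**Figure D2:**
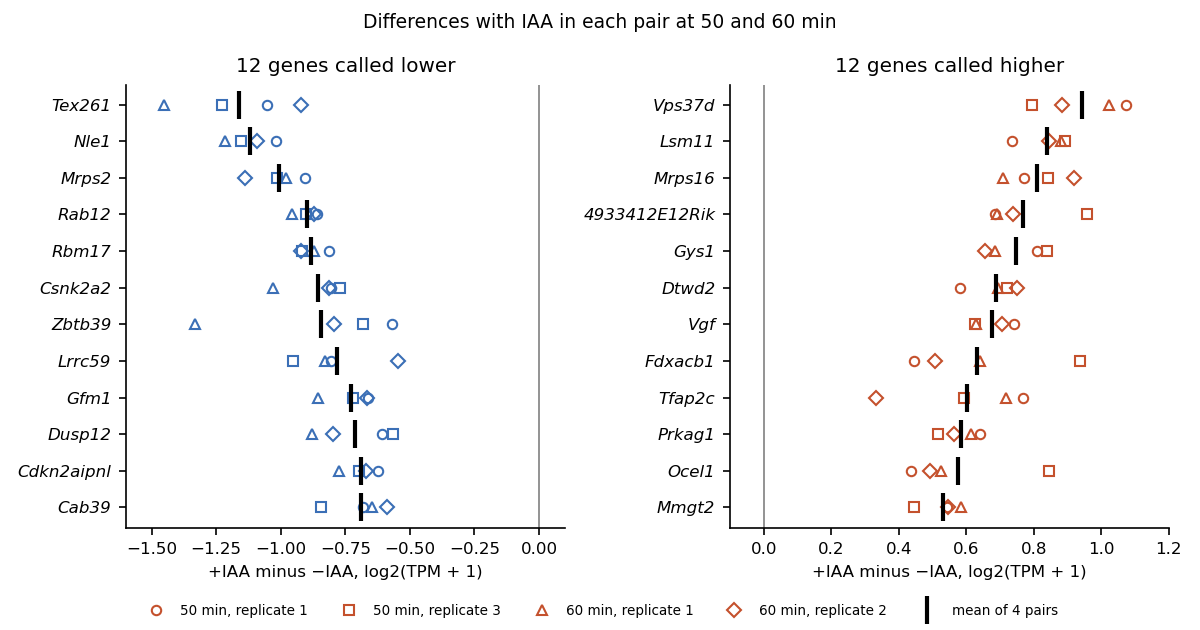
Difference between +IAA and −IAA (horizontal axes, log2(TPM + 1)) in each of the 4 pairs, with 1 symbol per time and replicate and a black bar at their mean, for the 12 most reduced and 12 most increased genes of at least 1 TPM. The genes were chosen among those that moved alike in all 4 pairs, so no pair crosses 0. Tex261 has the largest fall at −1.16 and Vps37d the largest rise at 0.94.

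The sequence at the start sites was read next, since CTCF binds DNA close to many promoters. RefSeq gives windows of 250 bases before to 50 bases after the start site (build GRCm38.p6) for 8251 of the 10237 genes (80.6%), of which 52 were matched through an older symbol. Each window was searched on both strands for a word of 12 letters that follows the core of the CTCF motif: CCA, AG and GGC in this order, with 2 free letters between each and the next. The word, and the split by strand below, were chosen with results of these data in view. A match is a description of the letters and does not show binding.

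A match was present in 270 of the 8251 genes (3.27%). Where the word read in the direction of transcription (162 genes), 24 genes were lower in +IAA cells (14.8%) and 2 higher (1.23%). Where it lay on the opposite strand (106 genes), 5 were lower (4.72%) and 6 higher (5.66%). Of the 7981 genes without a match 111 were lower (1.39%) and 72 higher (0.902%). The background of 1.78% and 0.996% is over all 10237 genes, with or without a window. The median log2 difference was −0.04 with the word on the gene strand and −0.00075 with it on the opposite strand, and most genes with a match were not called. Windows were at hand for 140 of the 182 lower genes (76.9%) and 80 of the 102 higher genes (78.4%); under 80% of either set could be looked up, so no share of the called sets is given and such a check is void.

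Over all 270 genes with a match its first base lay at a median of −82 bases from the start site, and in 171 (63.3%) within 150 bases before it. The whole window is shown for Gfm1, the one gene among the 12 most reduced with the word on the gene strand, and for Vps37d, which together with Lsm11 is among the 12 most increased with the word on the opposite strand and has the larger difference. For Gfm1 (chr3:67429865-67430164, + strand) the word begins at −84 on the gene strand, and for Vps37d (chr5:135078217-135078516, − strand) at −88 on the opposite strand, so that its complement is read here; capitals mark the word.
Gfm1: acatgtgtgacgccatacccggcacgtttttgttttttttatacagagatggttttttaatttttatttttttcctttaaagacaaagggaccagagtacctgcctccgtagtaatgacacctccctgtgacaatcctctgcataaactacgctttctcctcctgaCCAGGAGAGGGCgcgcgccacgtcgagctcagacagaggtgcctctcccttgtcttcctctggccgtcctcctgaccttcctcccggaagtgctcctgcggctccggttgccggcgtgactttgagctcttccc
Vps37d: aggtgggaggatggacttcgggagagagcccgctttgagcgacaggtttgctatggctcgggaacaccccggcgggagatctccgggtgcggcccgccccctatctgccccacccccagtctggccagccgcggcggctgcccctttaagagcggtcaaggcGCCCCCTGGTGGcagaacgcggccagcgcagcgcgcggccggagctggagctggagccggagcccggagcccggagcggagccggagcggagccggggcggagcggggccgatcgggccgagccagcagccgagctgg

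To show the letters around the word, windows of 30 bases are given for 6 of the 24 lower genes with the word on the gene strand, with the word in capitals. They were picked after their values were seen and are no sample of the 24, whose matches begin between −206 (Slc35b2) and 29 (Ppm1f) bases from the start site. The windows lie at Adprhl2 chr4:126321739-126321768, Krtcap2 chr3:89246358-89246387, Agfg1 chr1:82839369-82839398, Csk chr9:57645688-57645717, Gaa chr11:119267927-119267956 and Ndufaf4 chr4:24898018-24898047.
Adprhl2: gactccgggCCACAAGGGGGCgctgtgggg
Krtcap2: tcctccttgCCACAAGAGGGCgctgcaccc
Agfg1: tcctcccggCCAGCAGAGGGCgccagcctg
Csk: ctccaaggtCCAGCAGAGGGCgccgaccca
Gaa: cgccctcagCCACTAGGGGGCgcagcgata
Ndufaf4: tcctcccggCCACCAGGGGGCgacgagcgc
Adprhl2, a hydrolase that removes ADP-ribose from serine, fell by 0.64 on the log2 scale (limma adjusted p = 0.000349), from 4.46 ± 0.579 to 2.51 ± 0.333 TPM (SD, n = 4 each). Krtcap2, a subunit of the oligosaccharyltransferase, fell by 0.50 and Gaa, the lysosomal alpha-glucosidase, by 0.37. Ndufaf4, an assembly factor of respiratory complex I, was at 4.15, 3.95, 3.62 and 3.31 TPM without IAA and at 3.35, 2.10, 2.61 and 2.73 TPM with IAA, so that the groups met although every pair fell.

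Of the 8 higher genes with the word, 6 carry it on the opposite strand, so that its complement is read in the direction of transcription, and 2 (Eef2kmt and Slx1b) carry it on the gene strand. Windows of 3 of the 6, picked after their values were seen, lie at Lsm11 chr11:45945018-45945047, Nabp2 chr10:128410013-128410042 and Bbc3 chr7:16310118-16310147.
Lsm11: atctatgctGCCCCCTGGTGGccgcggctg
Nabp2: atctggggcGCCCCCTGGTGGtccatccat
Bbc3: ctcgcccgcGCCCCCTGGTGGctagtgaga
All 3, like Vps37d, hold the same 12 letters, CCACCAGGGGGC when read on the opposite strand, while Echdc1 and Igll1, the other two on that strand, hold other letters. Nabp2, a single-stranded DNA binding protein of the DNA damage response, was at 3.76, 4.34, 4.00 and 4.24 TPM without IAA and at 6.24, 6.38, 6.20 and 6.08 TPM with IAA (log2 difference 0.51, limma adjusted p = 0.00124). Bbc3, which encodes the cell death protein PUMA, rose by a smaller step, from 7.72 ± 1.36 to 9.30 ± 1.58 TPM (log2 difference 0.24), and lost its call without replicate 1 (adjusted p = 0.17) and without the block (adjusted p = 0.898). In the fit over all 36 CTCF-AID libraries Bbc3 was not called either (limma adjusted p = 0.104). The lower genes Fam133b, Ndufaf4, Hs1bp3 and Scap carry these same 12 letters on the gene strand. Genes that carry these letters without a call were not counted, so no share can be set beside these names. The 5 lower genes with the word on the opposite strand are Def8 (at −33), Entpd6 (−135), Rbm17 (−169), Dennd6b (−180) and Gm16973 (−188).

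**Figure D3:**
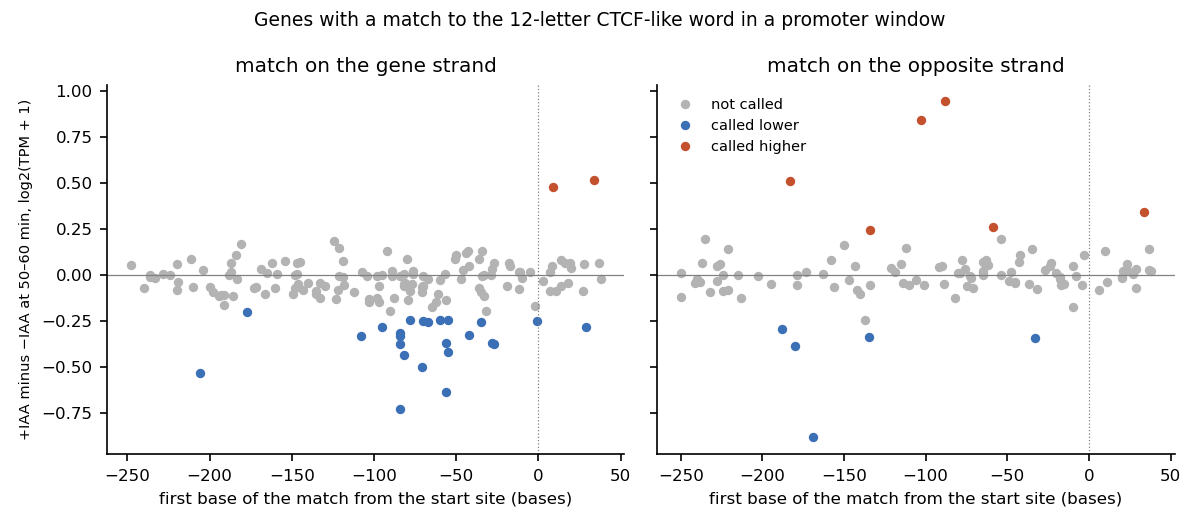
Difference between +IAA and −IAA at 50–60 min (vertical axis, log2(TPM + 1)) against the place of the first base of the match from the start site (horizontal axes, bases), for genes with the word on the gene strand (left) or on the opposite strand (right); for each gene the first match listed is drawn. Of the 162 genes with the word on the gene strand alone 24 were called lower (blue) and 2 higher (orange), and of the 106 with it on the opposite strand alone 5 and 6.

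Other spellings were searched on both strands in the same windows. The stricter word, with GG between AG and GGC, was found in 55 of all 8251 genes (0.667%), of which 9 were lower (16.4%) and 5 higher (9.09%), beside 1.78% and 0.996% of all 10237 genes. The looser word, with CC in place of CCA and the third letter free, was found in 1276 (15.5%), of which 64 were lower (5.02%) and 21 higher (1.65%). Words that are not the CTCF core, namely CCGCCCCC, TATAAA and CACGTG, were found in 2111 (25.6%), 650 (7.88%) and 1059 (12.8%) of the 8251 genes. Of these 29 (1.37%), 16 (2.46%) and 12 (1.13%) were lower, and 15 (0.711%), 5 (0.769%) and 11 (1.04%) higher.

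The stages before and after the burst used other libraries of the same replicates. Exposure to IAA differed between them: it began 2 h before release in the synchronised cells and went on after it, while asynchronous +IAA cells received 0.5 mM IAA for 4 h with no RO-3306 or nocodazole, so stage and length of exposure cannot be told apart. The stages were fitted together over all 36 CTCF-AID libraries with the pair as a block. The 18 pairs come from 3 replicates and were treated as independent, so these p-values measure the spread between pairs and not between replicates. In mitotic cells 0 genes were called (0%; limma, 494 at an unadjusted p under 0.05). At 20–40 min 117 genes were lower (1.14%) and 21 higher (0.205%), at 90–120 min 262 (2.56%) and 120 (1.17%; 3.73% in all), and in asynchronous cells 231 (2.26%) and 186 (1.82%; 4.07% in all). The 182 genes lower in the burst had a median log2 difference of −0.09 in mitotic cells, −0.18 at 20–40 min, −0.39 at 90–120 min and −0.34 in asynchronous cells, and 0, 59, 136 and 124 of them were called lower there. The 102 higher genes had medians of 0.03, 0.07, 0.19 and 0.18, and 0, 14, 45 and 43 of them were called higher. At 20–40 min the median of all genes was itself lower, at −0.05.

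**Figure D4:**
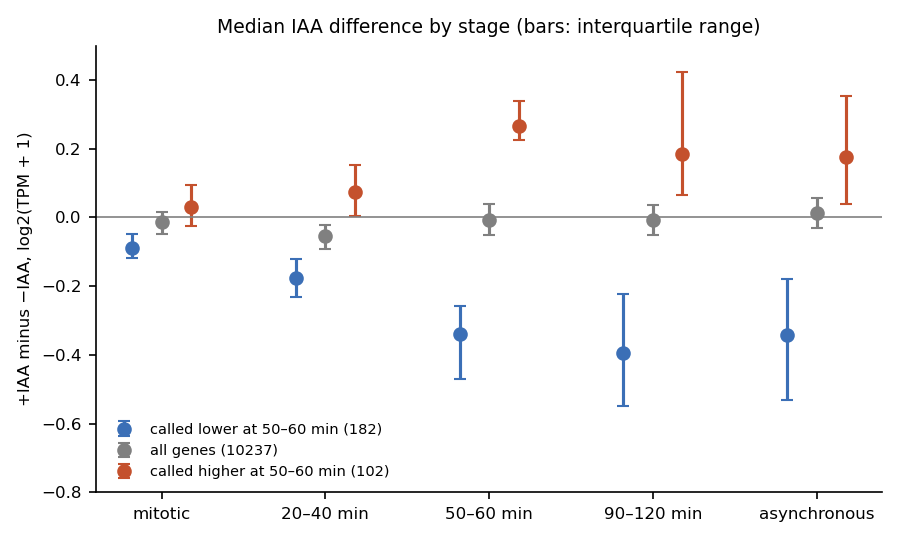
Median difference between +IAA and −IAA (vertical axis, log2(TPM + 1)) at 5 stages for the 182 genes called lower at 50–60 min (blue), the 102 called higher (orange) and all 10237 genes (grey); bars span the interquartile range over genes. The genes were chosen by their values at 50–60 min, and the median of the lower set goes from −0.09 in mitotic cells to −0.34 at 50–60 min and −0.39 at 90–120 min, and that of the higher set from 0.03 to 0.26 and back to 0.19.

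Set against release from mitosis, the lower genes gained less and the higher genes more. From mitotic cells to 50–60 min the lower genes rose by a median of 0.51 without IAA and 0.19 with IAA on the log2 scale, the higher genes by 0.73 and 1.02, and all genes by 0.61 and 0.62. In CCNA-GFP cells, which carry no degron, 181 of the 182 lower and 94 of the 102 higher genes are listed, and these rose by medians of 0.68 and 0.78 over 3 pairs, beside 0.73 for the 9574 genes listed in both tables. The +IAA and −IAA values are those that chose the genes and are given as a description.

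The mean of Nle1 in +IAA cells did not exceed its mitotic value at any time from 20 to 120 min. Without IAA it went from 4.48 ± 0.671 TPM in mitotic cells (SD, n = 3) to 4.64 ± 0.66 TPM at 40 min, then 6.98 ± 0.203 TPM and 7.31 ± 1.01 TPM at 50 and 60 min (SD, 2 libraries each). With IAA it went from 3.91 ± 0.451 TPM to 2.90 ± 0.671, 2.77 ± 0.341 and 2.72 ± 0.228 TPM, and to 1.06 ± 0.0624 TPM in asynchronous cells (n = 3). Its log2 difference was −1.25 at 90–120 min, and the burst was not called different from that stage (limma adjusted p = 0.782). Tex261 stood at 1.25 ± 0.19 TPM in mitotic +IAA cells and 1.33 ± 0.00691 TPM at 60 min, against 1.52 ± 0.351 and 4.4 ± 1.41 TPM without IAA. Vps37d was at 0.246 ± 0.131 TPM without and 0.249 ± 0.00539 TPM with IAA in mitotic cells, at 0.709 ± 0.108 and 2.00 ± 0.289 TPM at 40 min, and at 0.474 ± 0.187 and 0.539 ± 0.117 TPM in asynchronous cells. The means of the 2 arms of Vps37d lay within 1 SD of each other in mitotic and asynchronous cells and apart at 40 min and in the burst.

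**Figure D5:**
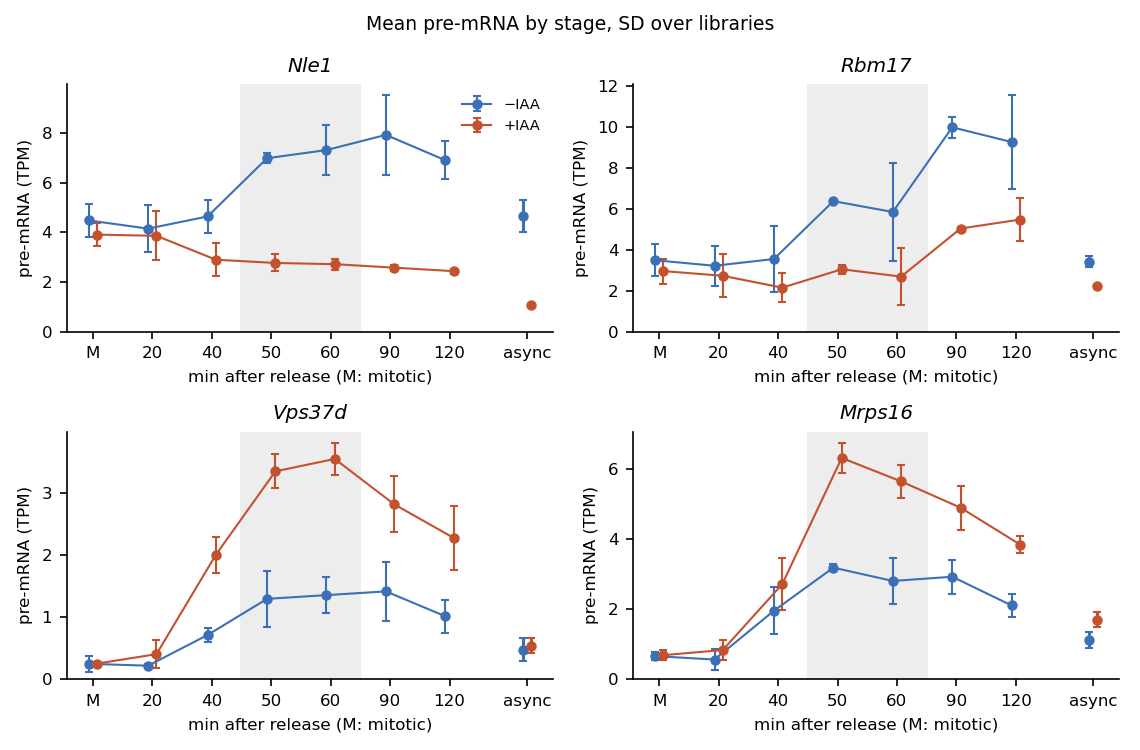
Mean pre-mRNA (vertical axes, TPM, from 0) of 4 genes in mitotic cells, at 20 to 120 min after release and in asynchronous cells, without (blue) and with (orange) IAA; bars are the SD of 3 libraries in mitotic and asynchronous cells and of 2 at the other stages, the 50 and 60 min points lie in the grey band, and the time axis is not to scale. The mean of Nle1 with IAA stays below its mitotic mean from 20 to 120 min, and Vps37d and Mrps16 reach a higher peak at 50 min to 60 min.

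Whether the IAA difference of the burst departed from that of another stage was tested as a contrast in the same fit over 36 libraries. Against mitotic cells 144 genes differed (1.41%), 81 more negative (0.791%) and 63 more positive (0.615%) in the burst, with Tex261 (−1.0, SE 0.12, limma adjusted p = 0.000342), Nle1 (−0.97, SE 0.11) and Vps37d (0.93, SE 0.14) the largest. Against asynchronous cells 125 genes differed (1.22%), 76 more negative (0.742%) and 49 more positive (0.479%). Vps37d was among these (0.88, SE 0.14, limma adjusted p = 0.00429), and so were Mrps16 (0.45, adjusted p = 0.00105) and Rbm17 (−0.43, adjusted p = 0.0357). Against 20–40 min 198 genes differed (1.93%), 54 more negative (0.527%) and 144 more positive (1.41%). Against 90–120 min 37 genes differed (0.361%), 9 more negative (0.0879%) and 28 more positive (0.274%). Once all libraries were scaled to 1 total, the counts against asynchronous cells, 20–40 min and 90–120 min were 274, 59 and 56. After division by the step the counts against mitotic cells, asynchronous cells, 20–40 min and 90–120 min were 54, 66, 22 and 4.

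These counts depend on few pairs. Without replicates 1, 2 and 3 in turn the count against mitotic cells was 8, 75 and 53, and against asynchronous cells 1, 64 and 22. Against 20–40 min it was 0, 324 and 62, and against 90–120 min 0, 0 and 1. Without the block the 4 counts were 5 (mitotic), 1 (asynchronous), 0 and 0.

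Other genes differed between the burst and 1 or more later stages. Dph7, an enzyme of diphthamide synthesis, fell by 0.26 at 50–60 min but by 0.75 at 90–120 min and 0.95 in asynchronous cells, a difference of 0.49 (limma adjusted p = 0.0853) and 0.69 (limma adjusted p = 0.00508) between stages. Dennd6b, a regulator of Rab GTPases, was at 0.77 ± 0.0135 TPM without and 0.475 ± 0.0103 TPM with IAA at 50 min (SD, n = 2 each), and at 1.45 ± 0.0832 and 0.23 ± 0.167 TPM at 120 min. Cacnb3, a calcium channel subunit, was 0.32 higher at 50–60 min and 0.87 higher at 90–120 min. Fkbpl was 0.39 lower in the burst. In asynchronous cells, where it was near 0 at 0.0372 ± 0.0644 TPM without and 0.349 ± 0.187 TPM with IAA (SD, n = 3 each), its log2 difference was 0.37 with no call, and the burst was not called different from 90–120 min (limma adjusted p = 0.721). At 50–60 min Dph7, Dennd6b and Cacnb3 lost their call without replicate 1 (limma adjusted p = 0.172, 0.117 and 0.117) and Fkbpl without replicate 3 (adjusted p = 0.138); without the block Dph7, Cacnb3 and Fkbpl were not called either (adjusted p = 0.611, 0.767 and 0.333).

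The gene lists linked to CTCF, pluripotency and stress hold 3 to 21 listed genes each, so that counts of 0 or 1 are near the background of 1.78% lower and 0.996% higher and are no result about these lists. Ctcf pre-mRNA was at 9.41, 10.1, 9.69 and 10.1 TPM without IAA and at 10.1, 11.5, 10.4 and 10.9 TPM with IAA. The mean log2 difference was 0.11 (SE 0.03, limma adjusted p = 0.0952), under the minimum of 0.2. All 4 pairs were higher, by 0.089 to 0.163. IAA removes the protein and not the transcript, so this value does not check the depletion. Of the 15 genes of CTCF and cohesin, with Smc1a, Smc3 and Rad21, 0 were called (limma, median −0.03), and Esco2, the most abundant, differed by 0.06.

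Of 16 listed pluripotency factors 0 were called (limma), with 14 below 0 and a median of −0.05 beside −0.0075 over all genes. Zfp42, at 39.0 ± 6.58 and 36.8 ± 6.63 TPM, had a log2 difference of −0.09, and Pou5f1 and Nanog had −0.04 and −0.02. Nr5a2 (−0.13, limma adjusted p = 0.0688) and Prdm14 (−0.11, adjusted p = 0.0952) passed the adjusted p with differences under the minimum size. None of 21 G1/S and Myc genes was called (median 0.0075), with Ccne1 at 0.09, Cdc25a at −0.04 and Ccne2 at 0.16 (limma adjusted p = 0.0556, under the minimum size), nor any of 11 immediate early genes (median 0.01), with Btg2 at 0.02 and Srf at 0.08. Of 15 p53 target genes, which respond to DNA damage, Bbc3 was called, 12 lay above 0, and Ccng1 and Trp53inp1 had log2 differences of 0.07 and 0.04. Of 16 heat shock and stress genes 0 were called and 14 lay above 0, with a median of 0.07. Over all 10237 genes 5581 lay below 0 and 4656 above, and whether the signs in these lists depart from that was not tested. The 3 listed targets of AHR, a receptor that binds indole compounds, were not called, with Tiparp at 0.13 and Nfe2l2 at −0.01.

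At loci where CTCF organises gene choice or imprinting too few genes are listed for a count of 0 to differ from the background of 2.77%. The 2 listed clustered protocadherins, Pcdhga12 and Pcdhgc4, differed by 0.01 and 0.09, and of 7 Hox genes (Hoxb9 −0.03, Hoxc13 −0.0025) and 17 imprinted genes (Meg3 −0.06, Cdkn1c 0.05) none was called by limma. Cdkn1c had pair differences from −0.47 to 0.27, and without replicate 3 it was called higher (0.22, limma adjusted p = 0.067). Among 87 ribosomal protein genes of the list used Rpl36 was lower (−0.47, limma adjusted p = 0.0109), at 23.4, 23.0, 24.6 and 25.5 TPM without IAA and 16.7, 18.3, 18.2 and 15.5 TPM with IAA. Rplp0, a ribosomal protein gene that the list of 87 leaves out, was also called lower (log2 difference −0.202). Rps29 and Rpl24 were higher by 0.25 each, with all pairs up. Such genes have many processed copies in the genome, so their values are uncertain. Without replicate 1, which leaves 2 pairs, Rpl36, Rps29 and Rpl24 had log2 differences of −0.50, 0.30 and 0.34 and were not called (limma adjusted p = 0.171, 0.139 and 0.158). Rpl24 also lost its call without the block (limma adjusted p = 0.273), without replicate 2 (0.19, adjusted p = 0.0975, under the minimum size) and without replicate 3 (adjusted p = 0.167), and its adjusted p of 0.0616 does not pass 0.05. Rps29 lost its call without replicate 3 (adjusted p = 0.101). Of 31 pause release and elongation factors only Cdc73, a subunit of the PAF1 complex that travels with RNA polymerase II, was called, with a fall of 0.22, and it lost its call without replicate 1 (limma adjusted p = 0.208) and without the block (adjusted p = 0.122). After division by the step of each library Cdc73 had −0.195 (limma adjusted p = 0.0912), under the minimum size, and was not called. Polr2a, the largest subunit of that polymerase, was at 19.1 ± 4.94 and 19.7 ± 4.2 TPM.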

How the data were processed

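Pre-mRNA was measured by ribo-depleted, stranded, paired-end RNA-seq. Per the methods, STAR (mm10) and RSEM were used, with Gencode vM12 extended by 1 pre-mRNA isoform a gene. The authors deposited the TPM of this isoform, keeping genes that passed 0.5 TPM in the asynchronous libraries or in 2 or more post-mitotic ones. TPM hold no counts, so count tests could not be used. The members and lists were chosen with earlier results of these data known.

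Here log2(TPM + 1) was fitted with limma 3.58.1 (lmFit, eBayes with trend) in R 4.3.3, with the 4 time-and-replicate pairs as a block. Other stages were fitted over 36 libraries (18 pairs). Deviations of same-numbered libraries from their group means correlated between the arms in all 18 pairs (r from 0.513 to 0.884; 12 distinct correlations, since 2 replicates mirror each other), so the numbers pair them. Of these fits, only that of the 4 pairs at 50–60 min was tested on simulated data. Genes were named by rule: Ctcf, the 12 lower and 12 higher genes with the largest difference among those of at least 1 TPM that moved alike in all pairs, called and the 2 most abundant list members, and the 3 largest in each contrast between stages. Any others were named after their values were seen, as were the lists by gene family. Alternatives were the block, pseudocounts of 0.1 and 0.5, a 1 TPM filter, scaling, trend, thresholds and leaving out replicates. Gene positions are from Gencode vM21 (GRCm38), with 10209 of 10237 symbols matched. Other steps used Python 3.11.15, numpy 2.4.6, pandas 2.3.3 and matplotlib 3.10.9.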

Additional observations from a re-analysis of the deposited data

Results flagged for a closer look

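The IAA difference at 50–60 min departed from that of another stage, by the limma contrast, in these genes with the largest departures. Against mitotic cells Tex261 differed by −1.0, Nle1 by −0.965 and Vps37d by 0.934. Against 20–40 min Tex261 differed by −0.827, Rhbdl1 by −0.815 and Nle1 by −0.811; Rhbdl1 was not called at 50–60 min itself, where its pair differences ran from −0.802 to 0.103, and was higher with IAA at 20–40 min by 0.444. With replicate 1 averaged over 50 and 60 min Rhbdl1 was called lower (−0.38, limma adjusted p = 0.0447). Against 90–120 min Dennd6b differed by 0.564, Cacnb3 by −0.545 and Dph7 by 0.488. Against asynchronous cells Vps37d differed by 0.875, Fkbpl by −0.76 and Dph7 by 0.691.

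In 2 of the 50 genes screened a single pair stood far from the other 3. The highest pair difference of Ctcf was 0.163, and that of Psmd1, a proteasome subunit, was −0.0808. The rule was the critical value of Dixon's test for 4 values, by which chance nominally sets about 1 in 20 groups of 4 apart in this way.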

How the results depend on the processing

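All 284 genes kept their direction under both scalings. Other settings could not turn it, since each gene moved 1 way in all 4 pairs. The number called moved, and the cause of these shifts was not tested. With no replicate block 120 genes were called (94 lower, 26 higher), 9 at 50 min, 6 at 60 min, and 5, 0, 0 and 1 in the contrasts with mitotic cells, 20–40 min, 90–120 min and asynchronous cells. A pseudocount of 0.1 gave 158 higher genes, 71 against 20–40 min and 14 against 90–120 min, and one of 0.5 gave 110 against 20–40 min. A filter of 1 TPM gave 22 against 90–120 min and 63 against asynchronous cells. The same total in each library gave 59, 56 and 274 against 20–40 min, 90–120 min and asynchronous cells. Division by the step of each library, the smallest unit of its TPM, gave 202 at 50 min, 54, 22, 4 and 66 in the contrasts, and a median over all genes of 0.0124. An adjusted p under 0.05 with no minimum difference gave 58 at 50 min, 72 at 60 min, and 59, 16 and 75 against 20–40 min, 90–120 min and asynchronous cells. Leaving out 1 replicate gave 95–294 genes in all (74–191 lower, 21–103 higher), 32–203 at 50 min, 3–4 for 60 min against 50 min, 8–75 against mitotic cells, 0–324 against 20–40 min, 0–1 against 90–120 min and 1–64 against asynchronous cells. Without replicate 1 each time keeps 1 pair and gives no value for 50 or 60 min alone. Depth is unknown, so genes near the authors' filter of 0.5 TPM carry a counting error that cannot be stated.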

Other observations

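Calls in gene families stand beside 1.78% of all genes lower and 0.996% higher. Of 74 listed mitochondrial ribosomal protein genes 2 were lower (Mrps2 and Mrpl23) and 3 higher (Mrps16, Mrpl41 and Mrpl43), with a median log2 difference of 0.02. Of 44 complex I genes 3 were lower: Ndufab1 (−0.63), Ndufb7 (−0.50) and Ndufaf4 (−0.37). Of 36 genes with symbols of the Psma to Psmd series of proteasome subunits, a match by name that takes in Psmc3ip, Psmd6 (−0.68) and Psmd1 (−0.20) were lower. Of 33 tRNA synthetases Aars2 (−0.41) and Rars (−0.34) were lower. Among 284 Zfp genes, a large family of zinc finger regulators, 2 were lower (Zfp398 and Zfp341) and 2 higher (Zfp41 and Zfp747), and among 33 Zbtb genes Zbtb39 was lower and Zbtb45 higher.

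The 284 called genes are 2.77% of all genes. Of the 10188 pairs of adjacent listed genes 10 (0.0982%) were both called, 6 of them both lower, 1 both higher and 3 opposite. Whether this exceeds what the share called would give was not tested, so the pairs are listed as a description and are no result about neighbours. In 8 of the 10 the start sites lie within 100 kb, while those of Api5 and Traf6 are 7240293 bases apart and those of Nomo1 and Saal1 676982 bases, all 4 lower. Of the genes with a position, 1090 of 10209 (10.7%) have a listed partner on the other strand whose start site lies within 1000 bases and faces away, and so do 9 of the 182 lower genes (4.95%) and 13 of the 102 higher genes (12.7%). In 1 such pair both were called: Bysl, a ribosome assembly factor (−0.33), and Med20, a Mediator subunit (−0.22), whose start sites are 90 bases apart. Alg5 had −0.38 and Exosc8, 146 bases away, −0.19 (limma adjusted p = 0.0203, under the minimum size). Polr3a, a subunit of RNA polymerase III, had a log2 difference of −0.53. Rps24, 67 bases away, went the other way, with 0.19 (limma adjusted p = 0.035, under the minimum size). Nabp2 was 0.51 higher while Rnf41, 165 bases away, had −0.04. The opposite pairs were Ankrd52 (−0.30) and Nabp2 (0.51), Dph7 (−0.26) and Mrpl41 (0.28), and Polr2j (−0.21) and Lrwd1 (0.27). Ankrd52 with Nabp2 and Polr2j with Lrwd1 overlap on opposite strands. The higher genes had a median span of 9.6 kb, against 22.1 kb for the lower genes and 22.5 kb for all.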
